A study of Mus musculus with 14 samples.

Results

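The comparison sets untreated Treg cultures against untreated Th1 cultures of mouse CD4+ T cells. It rests on 4 of the 14 arrays of the series, 2 Treg control arrays and 2 Th1 control arrays, chosen by the group that their labels give. The CD4+ T cells came from spleen and from peripheral and mesenteric lymph nodes, and every culture received human IL-2 at 100 U/ml. The Treg cultures in addition received human TGF-beta1 at 5 ng/ml and no antibody. The Th1 cultures in addition received mouse IL-12 at 10 ng/ml and an antibody to mouse IL-4 at 10 ug/ml. The protocols give 5 days of culture, whereas the design text gives 6 to 7 days, and nothing read here gives the strain, sex or age of the mice. The 2 groups therefore differ in TGF-beta, in IL-12 and in the block of IL-4 together, and the parts of these in a difference cannot be told apart. The remaining arrays are Th17 cultures and cultures of all 3 subsets with acetate at 10 mM, and they enter here through the normalisation across arrays, the filter on mean signal, the choice of a probe set for each gene and the shared estimate of the spread.

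TGF-beta acts through a pair of receptor kinases and SMAD proteins, and with IL-2 it induces FOXP3, the transcription factor that defines regulatory T cells, in activated CD4+ T cells. IL-12 acts through its 2 receptor chains and STAT4, and drives T-bet (Tbx21) and interferon-gamma, which define Th1 cells. Cultures of this kind are mixtures, in which not every cell takes the intended fate.

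RNA was hybridised to Affymetrix Mouse 430 2.0 arrays, which give 1 signal per probe set. The values here are normalised signals, that is, the deposited signals after quantile normalisation of log2(signal + 3). A difference is given on that log2 scale as Treg minus Th1, with n = 2 arrays a group. The standard error of the fit follows the ± sign. Adding 3 to the signals shrinks the differences of genes of low signal, and the effect of noise at low signal was not tested. Of 18193 genes named on the array, 10916 with a mean log2 level of at least 3.60, a signal of about 9.10, were tested with limma over all 14 arrays. A gene was called at a Benjamini-Hochberg adjusted p under 0.05. No source says that arrays of the same group stem from different mice or cultures, and the spread behind every p-value is that between these arrays, possibly a technical one. Across the genes tested the Treg arrays correlated at 0.978, the Th1 arrays at 0.950, and Treg with Th1 arrays at 0.930 to 0.935 (Pearson's r across genes). The 3-prime probe set of 18S ribosomal RNA had a deposited signal of 3134 in Treg replicate 1 and of 298 to 609 in the other 3 arrays, and the ratio of 3-prime to 5-prime Gapdh probe sets was 1.22 and 1.23 in the Treg arrays and 1.05 and 1.00 in the Th1 arrays. Their part in the results was not tested, and the labels give no batch or scan date.

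The labels were set beside the genes that define the subsets, Foxp3 for Treg and Tbx21 and Ifng for Th1. Gata3, Gzma and Il21 are further markers named for this comparison and define neither label. Foxp3 had normalised signals of 283 and 383 in the Treg arrays and 15.1 and 11.2 in the Th1 arrays. Both Treg arrays were far above both Th1 arrays, a difference of 4.37 ± 0.36, adjusted p 7.3e-05. Gata3, a factor of Th2 cells that Treg cells also use, read 327 and 284 in the Treg arrays and 46.3 and 80.4 in the Th1 arrays (2.26 ± 0.45, adjusted p 0.012). Gzma, the cytotoxic protease granzyme A, read 4644 and 4583 in the Treg arrays and 181 and 183 in the Th1 arrays (4.64 ± 0.47, adjusted p 0.00022). Il21, a cytokine of helper T cells, went the other way, at 5.4 and 15.1 in the Treg arrays and 464 and 85.7 in the Th1 arrays (-4.04 ± 0.57, adjusted p 0.0018). The groups did not overlap for any of these 4 genes. The same held for 24.3% of all genes tested with Treg above and 25.3% with Treg below. Neither of the genes that mark Th1 cells was called. Tbx21 read 194 and 187 in the Treg arrays and 389 and 243 in the Th1 arrays, without overlap (-0.68 ± 0.53, adjusted p 0.56). Ifng was strong in all 4 arrays and overlapped, at 1099 and 1256 in the Treg arrays and 3009 and 891 in the Th1 arrays (-0.48 ± 1.06, adjusted p 0.88). The Th1 genes that were higher in the Th1 arrays were the IL-12 receptor chains, Hlx and Lta, given with the Th1 genes. Of the 4 genes, Gata3 lost its call without either Treg array or Th1 replicate 1 (adjusted p 0.077 to 0.098).

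Between the untreated cultures 536 of 10916 genes were called, 4.91%. Of these, 307 were higher in Treg (2.81%) and 229 lower (2.1%), and the median difference over all genes tested was -0.01. The unadjusted p was under 0.05 for 2000 genes. Differences of at least 1 on the log2 scale made up 238 of the higher and 166 of the lower genes, and differences of at least 3 made up 23 and 8. The arrays of the groups did not overlap for 2648 genes with Treg above (24.3%) and 2763 with Treg below (25.3%), so groups that do not overlap were common among all genes. On the signals as deposited, without normalisation between arrays, 204 genes were called higher and 62 lower, and the median of all genes moved to 0.19. Differences here are relative to the level that quantile normalisation sets.

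**Figure D1:**
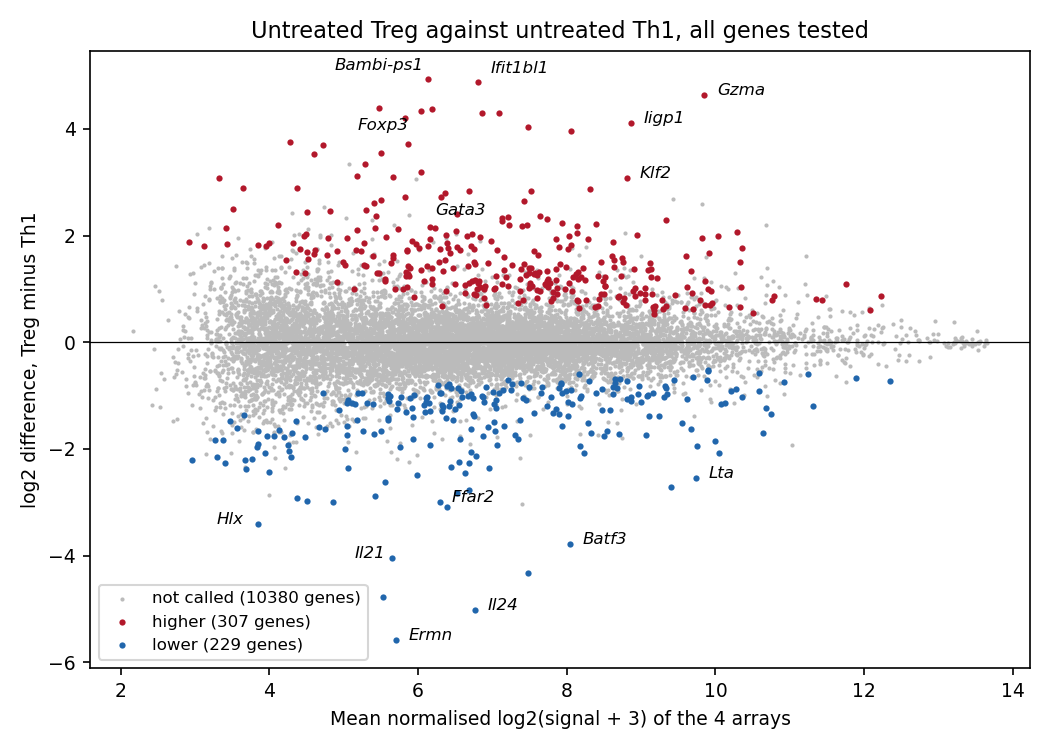
Each point is 1 of the 10916 genes tested, with the mean normalised log2(signal + 3) of the 4 untreated arrays on the x axis and the log2 difference, Treg minus Th1, on the y axis. The 307 genes called higher (red) reach 4.94 and the 229 called lower (blue) reach -5.58, and most genes lie near 0.

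The calls rest on 2 arrays a group, and many needed all 4. With Treg replicate 1, Treg replicate 2, Th1 replicate 1 or Th1 replicate 2 left out, 153, 125, 356 and 350 genes were called, of which 145, 120, 253 and 260 were among the 536 in the same direction. The calls of 90 genes, 56 higher and 34 lower, held without each of the 4 arrays in turn, and these are called stable calls here. Of the 98 called genes named in the text, 37 were stable, and 34 also kept their call under all 26 alternatives. These fits give the lone array left in a group the spread of the remaining groups. Calls lost without an array are named beside each gene group with their adjusted p, as are those lost on the signals as deposited or with the probe sets of a gene averaged.

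The largest differences named genes of several kinds. Higher in Treg were Bambi-ps1, annotated as a pseudogene of the TGF-beta family decoy receptor Bambi, with signals of 312 and 479.7 against 8.55 and 11 (4.94 ± 0.43, adjusted p 7.3e-05), where the probe set of Bambi itself differed by only -0.14. Ifit1bl1, of the interferon-induced IFIT family, followed with 562 and 652 against 14 and 22 (4.88 ± 0.58). Car2, a carbonic anhydrase, read 236 and 173 against 6.26 and 7.19 (4.40 ± 0.62), and Atp1b1, a subunit of the sodium pump, 287 and 300.3 against 13.6 and 9.96 (4.34 ± 0.43). In each of these the Treg arrays stood far above the Th1 arrays, and the arrays within a group lay close together. Pde2a, a cyclic nucleotide phosphodiesterase, read 989 and 1115 against 55 and 76.6 (3.95 ± 0.34). Ifi209, an interferon-inducible gene, read 718 and 726 against 29.7 and 57 (4.03 ± 0.56), and Pdlim4, an actin-associated PDZ and LIM protein, 97.2 and 87.3 against 2.41 and 6.82 (3.71 ± 0.56). All of these, with Foxp3, Gzma and the immunoglobulin gene Igha, were stable calls. Cd7, a T and NK cell surface protein, had 592 and 443 against 18.4 and 29.5 (4.29 ± 1.00, adjusted p 0.027), but its call was lost without each array in turn (adjusted p 0.076 to 0.16).

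Lower in Treg were above all Ermn, which encodes the actin-binding protein ermin, at 7.95 and 2.21 against 489.8 and 261 (-5.58 ± 0.49, adjusted p 7.3e-05), and Il24, an IL-10 family cytokine, at 18.5 and 14.1 against 638 and 597 (-5.02 ± 0.43, adjusted p 7.3e-05). Serpinf1, a secreted serpin, read 34.5 and 39.5 against 787 and 814 (-4.33 ± 0.58), and Batf3, a leucine zipper transcription factor, 83.3 and 56.1 against 1147 and 832 (-3.78 ± 0.30). The Treg arrays of these genes were low throughout. Timp1, an inhibitor of metalloproteinases, had 23.3 and 28.3 against 214 and 271 (-3.08 ± 0.34), and Ppp1r3b, which targets a phosphatase to glycogen, 40.4 and 32.4 against 242 and 292 (-2.78 ± 0.43). Emp1, a membrane protein gene, had 17.4 and 2.17 against 63.4 and 98.6 (-3.00 ± 0.51); its other probe set differed by 0.50, and with both averaged the call was lost: Emp1 (-1.25, adjusted p 0.18). All 7 were stable calls. Less stable were Serpinb5 (-4.78 ± 0.79), Cpne6 (-2.97 ± 0.55), the glutamate transporter gene Slc17a6 (-2.91 ± 0.62) and Inhba, the activin A chain (-2.88 ± 0.64). Their calls were lost for Serpinb5 without Treg replicate 2 (adjusted p 0.063), Cpne6 without either Treg array or Th1 replicate 2 (adjusted p 0.0522 to 0.072), Slc17a6 without Treg replicate 1 or Th1 replicate 2 (adjusted p 0.12 to 0.17) and Inhba without Treg replicate 2 or Th1 replicate 1 (adjusted p 0.15 to 0.22). Averaging the probe sets of a gene ended the calls of Serpinb5 (-3.05, adjusted p 0.075) and Inhba (-1.10, adjusted p 0.16).

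**Figure D2:**
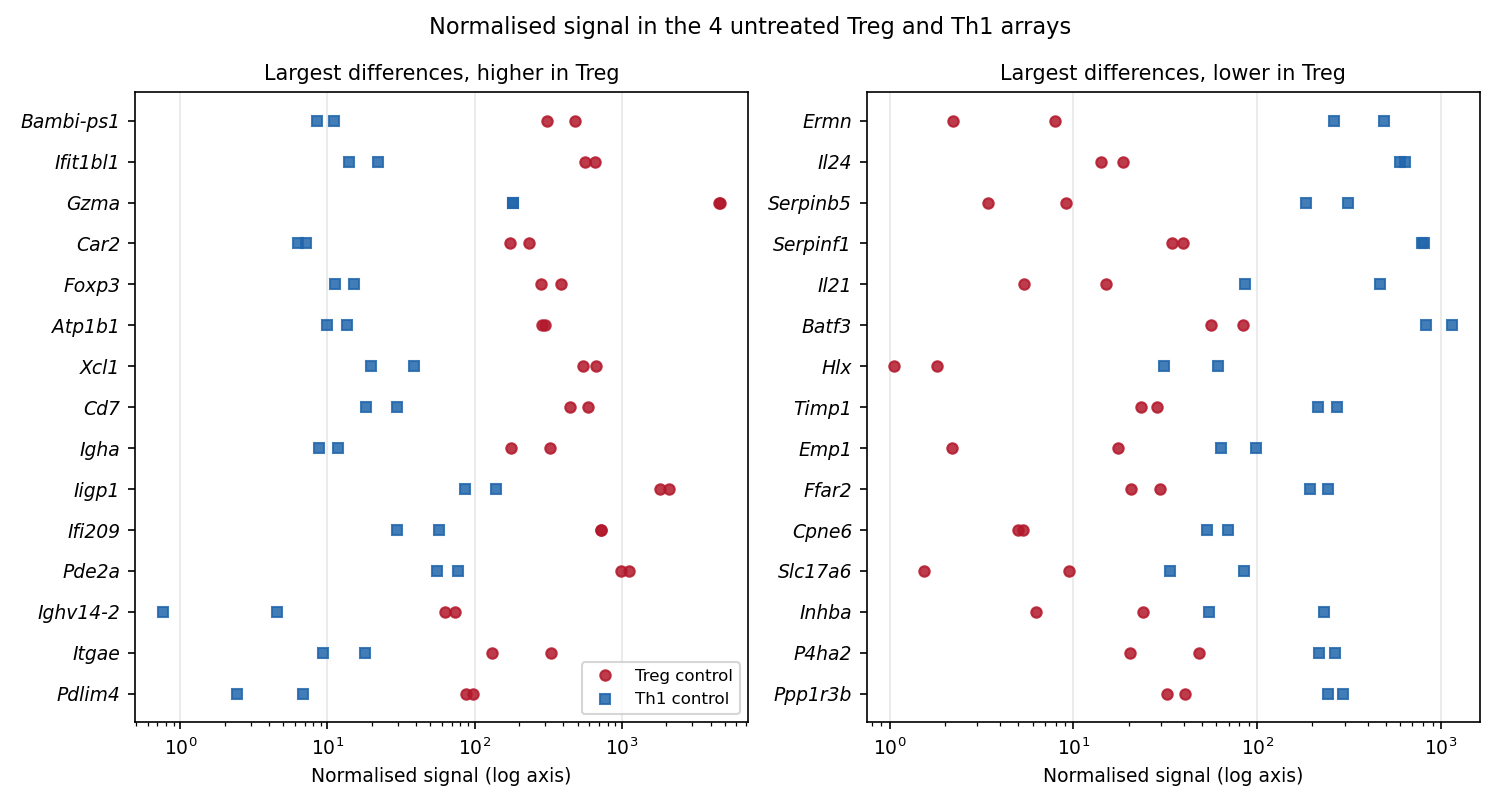
Normalised signals (log axis) of the 15 genes with the largest called differences in each direction, 1 point for each Treg control array (red circles) and each Th1 control array (blue squares). Groups do not overlap for any of these genes, by the rule that chose them, and Gzma and Iigp1 have the highest signals of those higher in Treg.

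Among Treg markers, 6 of the 16 tested were called higher and 0 lower, with a median difference of 0.44 against -0.01 for all genes tested. Each list's count of calls, here and below, stands against 4.91% of all genes tested. Beyond Foxp3, the higher members follow. Ikzf2, the Ikaros family factor Helios, read 553 and 644 against 99.2 and 169 (2.18 ± 0.31, adjusted p 0.0018). Nt5e, the adenosine-forming ectoenzyme CD73, read 351 and 273 against 50.2 and 70.6 (2.32 ± 0.36, adjusted p 0.003). Both separated the groups and both were stable calls. Itgae, the integrin chain that binds E-cadherin, had 327 and 132 against 9.31 and 18 (3.71 ± 0.78, adjusted p 0.016), the receptor gene Gpr83 105 and 155 against 38 and 31.3 (1.81 ± 0.41, adjusted p 0.024), and the co-receptor gene Nrp1 82.1 and 128 against 36.1 and 40.1 (1.36 ± 0.32, adjusted p 0.027). Their calls were lost for Itgae without either Treg array or Th1 replicate 1 (adjusted p 0.0512 to 0.16) and Gpr83 and Nrp1 without any 1 of the 4 arrays (adjusted p 0.0536 to 0.24). Without Treg replicate 1, Treg replicate 2, Th1 replicate 1 or Th1 replicate 2, 3, 3, 3 and 4 members were called higher. Ctla4, an inhibitory receptor, was high in all arrays, at 3371 and 3149 against 2299.9 and 1360.0, and was not called (0.88 ± 0.36, adjusted p 0.2). The probe sets of Il2ra, the IL-2 receptor alpha chain, differed in sign, at -0.93 for the one used (521 and 483 against 1239 and 746, adjusted p 0.1) and 0.68 for the other, so no direction can be given.

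Of 17 TGF-beta response genes tested, 6 were called higher and 1 lower, with a median of 0.82. Both signalling receptors were higher in Treg: Tgfbr2 read 436 and 449 against 194 and 182 (1.22 ± 0.18, adjusted p 0.0023) and Tgfbr1 117 and 141 against 42.7 and 44.4 (1.50 ± 0.39, adjusted p 0.044). Tgfbr3, the co-receptor betaglycan, was lower in Treg, at 68.4 and 103 against 293 and 314 (-1.81 ± 0.28, adjusted p 0.003). Skil, which encodes the SMAD repressor SnoN, read 623 and 665 against 293 and 197 (1.41 ± 0.28, adjusted p 0.013) and Tgif1, another SMAD co-repressor, 182 and 186 against 105 and 76.3 (1.02 ± 0.25, adjusted p 0.035). Itgae and Bambi-ps1 complete the higher members. Smad7, the inhibitory SMAD, at 0.88 (adjusted p 0.16), and Ski, at 0.01, were not called. Tgfbr2 and Tgfbr3 were stable against leaving out an array, although both lost the call, with Tgfbr1 and Skil, when the probe sets of a gene were averaged: Tgfbr2 (0.024, adjusted p 0.98), Tgfbr3 (-0.79, adjusted p 0.12), Tgfbr1 (0.34, adjusted p 0.61) and Skil (0.66, adjusted p 0.31). The call was lost for Tgfbr1 without any 1 of the 4 arrays (adjusted p 0.12 to 0.25) and Skil and Tgif1 without either Treg array or Th1 replicate 2 (adjusted p 0.08 to 0.18), and on the signals as deposited for Tgif1 (1.22, adjusted p 0.089). The members called higher numbered 2, 2, 6 and 3 without the arrays in the order given above.

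The Th1 genes split by direction: of 18 tested, 3 were called higher and 4 lower in Treg, with a median of 0.16. Lower in Treg were the IL-12 receptor chains, Il12rb2 at 72.2 and 63.8 against 219.9 and 199 (-1.58 ± 0.38, adjusted p 0.03) and Il12rb1 at 122 and 112 against 329 and 193 (-1.09 ± 0.26, adjusted p 0.029). Lta, the ligand lymphotoxin alpha, was lower too, at 431 and 289 against 2480.5 and 1718 (-2.54 ± 0.35, adjusted p 0.0017), as was Hlx, a homeobox factor that T-bet induces, at 1.06 and 1.82 against 61 and 31.2 (-3.40 ± 0.49, adjusted p 0.0022). Lta and Hlx were stable calls. Higher in Treg were Stat4, the transducer of IL-12, at 852 and 852 against 272 and 486 (1.22 ± 0.26, adjusted p 0.017), and the chemokine receptor genes Cxcr3, at 438 and 463 against 94.6 and 75.7 (2.37 ± 0.50, adjusted p 0.016), and Cxcr6, at 185 and 144 against 37.2 and 39.9 (2.00 ± 0.52, adjusted p 0.045). Calls were lost for Il12rb2, Cxcr3 and Cxcr6 without any 1 of the 4 arrays (adjusted p 0.0514 to 0.24) and Il12rb1 and Stat4 without either Treg array or Th1 replicate 1 (adjusted p 0.11 to 0.18). They were also lost on the signals as deposited for Il12rb2 (-1.31, adjusted p 0.15) and Il12rb1 (-0.85, adjusted p 0.23), and with probe sets averaged for Cxcr6 (2.24, adjusted p 0.067). Of 12 IL-12 and STAT4 targets, 1 was called higher and 2 lower, with a median of -0.35. The stress genes Gadd45b and Gadd45g, which feed p38 signalling, went in opposite directions, at 350.1 and 364 against 129 and 44.4 (2.19 ± 0.38, adjusted p 0.006) and 179.7 and 213 against 1019 and 432 (-1.75 ± 0.32, adjusted p 0.0078). Neither was stable, the call being lost for Gadd45b without Treg replicate 2 (adjusted p 0.06) and Gadd45g without either Treg array (adjusted p 0.0511 to 0.079). Il18r1 (0.09) and Il18rap (1.02), the IL-18 receptor chains, were not called.

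Genes of the other helper fates were also divided. Of 12 Th2 genes, 2 were called higher and 2 lower, with a median of 0.32. Gata3 and Ccr8, a chemokine receptor, at 62.2 and 64.5 against 7.7 and 10.4 (2.47 ± 0.33, adjusted p 0.0015), were higher, and Il24 and the leucine zipper factor Nfil3, at 181 and 114 against 450.2 and 708 (-1.95 ± 0.36, adjusted p 0.0084), were lower. The cytokines of that lineage stayed low, with Il4 at 14.7 and 14.6 against 15.4 and 13.7 (0.01) and Il13 at 19.7 and 46 against 30.4 and 6.05 (0.94). Of 8 Th17 genes, 4 were called higher and 1 lower, with a median of 1.18. The higher ones were Gpr15, a gut-homing receptor, at 100.0 and 62.3 against 5.46 and 3.05 (3.52 ± 0.48, adjusted p 0.0016), the receptor gene Ccr6, at 102 and 105 against 10.2 and 8.49 (3.11 ± 0.38, adjusted p 0.00088), its ligand gene Ccl20, at 32.2 and 18.1 against 2.43 and 1.27 (2.50 ± 0.58, adjusted p 0.027), and Ahr, the aryl hydrocarbon receptor, at 46.4 and 56.2 against 12.6 and 9.67 (1.94 ± 0.38, adjusted p 0.011). Il17a, the defining cytokine, was at 1.4 and 7.55 against 6.76 and 11.2 (-0.79 ± 0.36, adjusted p 0.27) and was not called, and Rora differed by -0.54. Ccr8, Gpr15 and Ccr6 were stable calls, and calls were lost for Gata3 without either Treg array or Th1 replicate 1 (adjusted p 0.077 to 0.098), Nfil3 without Treg replicate 2 or Th1 replicate 2 (adjusted p 0.064 to 0.11), Ccl20 without any 1 of the 4 arrays (adjusted p 0.071 to 0.2) and Ahr without either Treg array or Th1 replicate 2 (adjusted p 0.06 to 0.1). With probe sets averaged the call ended for Ahr (1.08, adjusted p 0.082), and with 16 in place of 3 added to the signals for Ccl20 (1.19, adjusted p 0.2).

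Of 10 follicular helper genes, 4 were called higher and 1, Il21, lower, with a median of 0.64. Bcl6, the lineage factor, read 86.6 and 104 against 15.8 and 16.3 (2.36 ± 0.33, adjusted p 0.0018) and was a stable call. Its partners were Cxcr5, the follicle-homing receptor, at 59.9 and 64.4 against 31.3 and 13.8 (1.44 ± 0.36, adjusted p 0.037), Pdcd1, the inhibitory receptor PD-1, at 745 and 437 against 159 and 116 (2.05 ± 0.34, adjusted p 0.0047), and Sh2d1a, the adaptor SAP, at 571 and 531 against 299.6 and 312 (0.84 ± 0.20, adjusted p 0.029). Calls were lost for Cxcr5 without either Treg array or Th1 replicate 2 (adjusted p 0.16 to 0.21), Pdcd1 without Treg replicate 1 (adjusted p 0.068) and Sh2d1a without any 1 of the 4 arrays (adjusted p 0.083 to 0.19), and on the signals as deposited for Sh2d1a (0.99, adjusted p 0.12).

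Of 18 cytokine genes tested, 2 were called higher and 3 lower, with a median of 0.05. The lower ones were Il24, Il21 and Lta. The higher ones were Xcl1, the chemokine lymphotactin, at 545 and 664 against 38.9 and 19.6 (4.30 ± 1.10, adjusted p 0.042), and Il16, a CD4 ligand, at 873 and 929.6 against 266 and 445 (1.38 ± 0.30, adjusted p 0.019). The calls were lost for Xcl1 without any 1 of the 4 arrays (adjusted p 0.094 to 0.21) and Il16 without either Treg array or Th1 replicate 1 (adjusted p 0.11 to 0.14), and with probe sets averaged for Xcl1 (4.30, adjusted p 0.0534) and Il16 (0.64, adjusted p 0.19). Il10, the anti-inflammatory cytokine, illustrated the spread of the Th1 arrays, with 76.2 and 76.6 in the Treg arrays and 145 and 8.7 in the Th1 arrays (0.93 ± 0.78, adjusted p 0.59). Its values overlapped, and the difference was 2.77 (adjusted p 0.0053) without Th1 replicate 1 and -0.90 (0.24) without Th1 replicate 2. Il2 behaved alike, at 108 and 69 against 127 and 4.45 (1.52 ± 0.94, adjusted p 0.43), with 3.60 (0.012) and -0.54 (0.73) without these arrays. Il3 differed by 1.34 (adjusted p 0.42). All 8 chemokines tested had positive differences, with a median of 2.35, yet only Xcl1 and Ccl20 were called. Ccl3 (2082 and 2347 against 1360.0 and 95.6) and Ccl4 (3241 and 3761 against 2454 and 234), both inflammatory chemokines, were low in Th1 replicate 2 alone and were not called (adjusted p 0.2 and 0.22; 0.03 and 0.029 without Th1 replicate 1). Ccl1 differed by 3.34 ± 1.15 (adjusted p 0.13), and Ccl5 by 1.19 ± 0.78 (adjusted p 0.46).

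Of 14 cytotoxic effector genes, 2 were called higher and 0 lower, with a median of 0.50. They were Gzma, which was stable, and Gzmc, another granzyme, at 929 and 1054 against 248 and 238 (2.01 ± 0.52, adjusted p 0.045). Gzmb, granzyme B, was near the top of the signal range in all arrays, at 10859 and 10768 against 8988 and 7718 (0.38 ± 0.50, adjusted p 0.76). Eomes, the T-box factor of cytotoxic cells, read 190.1 and 212 against 75.1 and 65.6 (1.48 ± 0.53, adjusted p 0.14). All 7 NK lectin receptors and adaptors tested had positive differences (median 1.42), of which 1 was called. It was Klrd1, the receptor chain CD94, at 1693 and 1188 against 289 and 288 (2.29 ± 0.43, adjusted p 0.0096), whereas Klrk1, the receptor NKG2D, differed by 1.64 ± 0.47 (adjusted p 0.065) and Klrc1 by 0.34. Calls were lost for Gzmc without any 1 of the 4 arrays (adjusted p 0.13 to 0.22) and Klrd1 without Treg replicate 1 (adjusted p 0.099), and with probe sets averaged for Gzmc (2.01, adjusted p 0.056).

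Of the 4 NK cell markers tested only Gzma was called, and of the 5 CD8 T cell markers only Cd8a. Summed over the 6 NK cell markers on the array, the normalised signal was 4944 and 4889.7 in the Treg arrays and 283 and 294 in the Th1 arrays, most of it Gzma, while the defining markers Ncr1 (2.38 and 5.54 against 6.05 and 6.32) and Klra8 (0.541 and 7.9 against 0.445 and 0.178) were near 0 in all 4 arrays. Tyrobp, the adaptor DAP12, read 33.5 and 32.5 against 5.92 and 10.5 (1.71 ± 0.64, adjusted p 0.16). The 5 CD8 T cell markers summed to 1006 and 1027 in the Treg arrays and 767 and 852 in the Th1 arrays. Cd8a read 179 and 128 against 19.3 and 4.95 (3.54 ± 0.67, adjusted p 0.0096), whereas Cd8b1, the chain that completes the CD8 heterodimer, overlapped between the groups at 38 and 69 against 44.2 and 32.6 (0.41), and Gzmk differed by 1.09. Cd8a lost its call without either Treg array or Th1 replicate 2 (adjusted p 0.057 to 0.089). The part of such cells in the Gzma, Gzmc and Klrd1 differences was not tested. In bulk RNA, fewer cells of a type and less RNA per cell cannot be told apart.

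Of the immunoglobulin genes named, Igha, Ighv14-2 and Ighm were called higher in Treg. Igha, the IgA constant region, read 325 and 178 against 11.7 and 8.74 (4.21 ± 0.66, adjusted p 0.0033), and Ighv14-2, a variable segment, 73.7 and 63.2 against 0.759 and 4.52 (3.75 ± 0.75, adjusted p 0.013). Ighm, the IgM constant region, read 2372 and 2743 against 546 and 673 (2.07 ± 0.45, adjusted p 0.019). Probe sets of such multigene families can share targets, and 1 further Ighm probe set was higher (2.99) while its low ones differed in sign. With all probe sets of the gene averaged the call was lost: Ighm (0.32, adjusted p 0.57). Summed over 9 B cell markers the signal was 2505 and 2867 in the Treg arrays and 604 and 787 in the Th1 arrays, nearly all of it Ighm. Cd79b, a chain of the B cell receptor, read 77.3 and 68.4 against 10.0 and 40.9 (1.66 ± 0.50, adjusted p 0.076), and Vpreb3 differed by 0.13. The markers Cd79a (4.75 and 15.1 against 2.68 and 12.2), Ms4a1 (4.98 and 0.659 against 7.72 and 5.01) and Pax5 (8.98 and 4.46 against 12.9 and 8.66) were low, at most 15.1. Igha was stable, Ighm lost its call without any 1 of the 4 arrays (adjusted p 0.06 to 0.15), and Ighv14-2 lost it without Th1 replicate 1 (adjusted p 0.081) and fell below the filter on low signals without either Treg array. The part of B cells in these differences was not tested.

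The remaining marker lists were small. The 12 myeloid markers summed to 146 and 206 against 121 and 209, with Csf1r (0.71), Adgre1 (0.42) and Cd68 (-0.56) not called. The 8 mast cell and basophil markers summed to 83.2 and 214 against 38.7 and 25.8. Kit, the stem cell factor receptor, was called at 26 and 28.9 against 10.1 and 2.33 (1.87 ± 0.44, adjusted p 0.028; lost without either Treg array or Th1 replicate 2 (adjusted p 0.13 to 0.17) and with probe sets averaged), while Cpa3 (2.13 ± 0.62) and Mcpt8 (2.13 ± 0.67) were not. Averaging gave Kit (1.24, adjusted p 0.27). Platelet and stromal markers were not called, with Pf4 at 0.94, Itga2b at -0.09, Pecam1 at 1.50 and Epcam at 0.41. Of 9 T cell markers 0 were called, and Cd3e (0.56), Cd3d (0.28) and Cd3g (0.21) had strong signals throughout. Xist read 3069.7 and 2929.5 against 3297 and 4527, and Eif2s3y, Kdm5d and Uty were at most 10.8, in every one of the 4 arrays.

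Of 18 homing receptors and integrins tested, 8 were called higher in Treg and 0 lower, with a median of 1.03. This was the largest number of calls of the lists given, 44.4% of those tested against 4.91% of all genes. By share the Th17 (62.5%) and follicular helper (50%) lists stood higher, and several of the 8 count in other lists too. S1pr1, the receptor for lymph node exit, read 236 and 248 against 56.8 and 69.2 (1.90 ± 0.21, adjusted p 0.00044), and Itgb3, the beta3 integrin chain, 389.6 and 464 against 53.2 and 81.1 (2.64 ± 0.34, adjusted p 0.0012). Both were stable calls, as were Gpr15, Ccr6 and Ccr8, given above. Itgae, Cxcr3 and Cxcr6 complete the 8. Ccr7, the lymph node entry receptor, was high in all arrays, at 2477 and 2807 against 1211 and 1372 (1.03 ± 0.56, adjusted p 0.37), and Itga4 differed by 1.03 ± 0.30 (adjusted p 0.07). Neither was called, but a fit of the 4 arrays alone called Ccr7 (1.06, adjusted p 0.011). The list kept 5, 5, 5 and 6 higher calls without the 4 arrays in turn.

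Of the 12 naive and memory T cell genes tested, 4 were higher and 0 lower, with a median of 0.88. Klf2, the factor that keeps T cells quiescent and induces S1pr1, read 1253 and 1363 against 109 and 209 (3.09 ± 0.54, adjusted p 0.0064). Foxo1, which acts upstream of Klf2, read 618 and 677 against 292 and 254 (1.24 ± 0.26, adjusted p 0.017), and Cd27, a costimulatory receptor of the TNF receptor family, 758 and 744 against 186 and 218 (1.88 ± 0.30, adjusted p 0.0035). Cd27 and S1pr1 were stable calls. The calls were lost for Klf2 without either Treg array or Th1 replicate 1 (adjusted p 0.0505 to 0.063) and Foxo1 without either Treg array or Th1 replicate 2 (adjusted p 0.088 to 0.14), and with probe sets averaged for Foxo1 (0.74, adjusted p 0.073). Lef1 differed by 0.89 ± 0.31 (adjusted p 0.13).

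In the TNF family 2 of 18 genes were higher and 2 lower, with a median of -0.17. Cd27 and Tnfrsf1b, the type 2 TNF receptor (181 and 150.4 against 70.2 and 92.8; 1.00 ± 0.26, adjusted p 0.042), were higher, and Lta and Tnfsf9, the ligand of 4-1BB (73 and 76.5 against 243 and 192; -1.49 ± 0.34, adjusted p 0.023), lower. Tnfsf4 and Tnfsf8 differed by -0.17 and -0.68 and were not called. Of 11 inhibitory receptors and adenosine enzymes, Pdcd1 and Nt5e were higher and 0 were lower (median 0.45), and Lag3 was level at 1069 and 1277 against 1241 and 1272. Of 13 IL-2 receptor and STAT5 targets only Il2rb, the IL-2 receptor beta chain, was called, at 876 and 754 against 585 and 443 (0.67 ± 0.16, adjusted p 0.031), with Jak3 at -0.35. Of 16 immediate early genes only Jun was called, at 455 and 597 against 250.4 and 192 (1.24 ± 0.32, adjusted p 0.042), with Fos at 0.46 and Fosl2 at -0.83. The IL-2 and immediate early lists had 7.69% and 6.25% called, near the 4.91% of all genes tested. Calls were lost for Tnfrsf1b, Tnfsf9 and Jun without any 1 of the 4 arrays (adjusted p 0.0542 to 0.27) and Il2rb without either Treg array or Th1 replicate 2 (adjusted p 0.1 to 0.24). They were also lost on the signals as deposited for Tnfrsf1b (1.22, adjusted p 0.078), Tnfsf9 (-1.24, adjusted p 0.077), Il2rb (0.78, adjusted p 0.23) and Jun (1.39, adjusted p 0.057), and with probe sets averaged for Tnfrsf1b (0.45, adjusted p 0.64) and Il2rb (0.67, adjusted p 0.062).

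Of 14 interferon-gamma inducible GTPases and antigen presentation genes tested, 5 were called higher and 0 lower (median 1.13), and of 18 type I interferon response genes 3 were called higher and 0 lower (median 0.83). Differences were positive for 12 and 14 of these genes. Interferons act through STAT proteins and IRF factors on response elements near the start of their target genes, and the immunity-related GTPases are among the genes induced most in mouse cells. The promoter windows of the GTPase genes called are shown because all 3 of those in the promoter table held the element searched, while that of Irf1, also called, did not. It was GAAA, any 2 bases and GAAA again, the core of the interferon-stimulated response element, searched on both strands from 250 bases before to 50 after the start. Each line gives the 120 bases just before the start, in RefSeq's sequence of GRCm38.p6, written in the direction of the gene, with the match in capitals.
Igtp: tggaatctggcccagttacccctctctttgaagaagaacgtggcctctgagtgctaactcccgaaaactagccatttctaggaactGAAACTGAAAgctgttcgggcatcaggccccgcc
Irgm1: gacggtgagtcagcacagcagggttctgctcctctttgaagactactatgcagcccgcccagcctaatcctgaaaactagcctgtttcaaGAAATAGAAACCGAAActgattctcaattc
Irgm2: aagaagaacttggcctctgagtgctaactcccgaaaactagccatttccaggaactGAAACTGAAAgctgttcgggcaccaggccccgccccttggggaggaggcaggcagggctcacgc
These windows lie at chr11:58199436-58199555 (plus strand), chr11:48871421-48871540 (minus strand) and chr11:58214857-58214976 (plus strand). Igtp and Irgm2 held the same letters at the match, and Irgm1 held 2 overlapping matches. The element was present in 1079 of 27025 genes with a promoter in the table (3.993%) and in 330 of 8920 of those tested (3.7%). It was present in 19 of 243 genes called higher (7.819%) and in 3 of 188 called lower (1.596%). It was in 7 of 12 members of the interferon-gamma list and 11 of 19 of the type I list, called or not. Of the called type I genes 1 of 3 held it, against 10 of 16 of those tested. A match describes the letters only.

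Iigp1, an immunity-related GTPase, read 1807 and 2082 against 140.0 and 85.7 (4.11 ± 0.69, adjusted p 0.0047). Irgm1 read 509 and 552 against 114 and 106 (2.24 ± 0.37, adjusted p 0.0046), and Irgm2 524 and 517 against 139 and 119 (1.99 ± 0.31, adjusted p 0.0032). These regulators of the family, and the abundant Igtp at 4917 and 5201 against 2736 and 2036 (1.10 ± 0.27, adjusted p 0.038), stood higher in both Treg arrays. Irf1, the factor that interferon-gamma induces, read 1668 and 1884 against 441 and 476 (1.95 ± 0.30, adjusted p 0.0032). Irf1 and Irgm2 were stable, and calls were lost for Iigp1 and Irgm1 without Treg replicate 2 (adjusted p 0.0536 to 0.0546) and Igtp without any 1 of the 4 arrays (adjusted p 0.057 to 0.2), and on the signals as deposited for Igtp (1.14, adjusted p 0.1). Irf8 (1.00 ± 0.29, adjusted p 0.068) and Gbp2, a guanylate-binding protein gene (1.40 ± 0.55, adjusted p 0.19), were not called. Ifng itself was not called, as given above. Of the type I genes, Ifit1bl1 was stable, Ifit2 read 109 and 118 against 25 and 32.3 (1.89 ± 0.37, adjusted p 0.011) and Irf7, the interferon-amplifying factor, 253 and 175 against 36.8 and 65.6 (2.03 ± 0.39, adjusted p 0.011). Calls were lost for Ifit2 without either Treg array or Th1 replicate 1 (adjusted p 0.067 to 0.1) and Irf7 without Treg replicate 1 or Th1 replicate 1 (adjusted p 0.08 to 0.11). Ifit1 (2.30 ± 0.84, adjusted p 0.15) and Ifit3 (1.93 ± 0.62, adjusted p 0.097) were not called, and Rtp4, at 305 and 143 against 11.5 and 10.6, lay below the filter on mean signal over all arrays and was not tested. Of the 22 type I genes on the array 18 were tested, and no signals are given for others below the filter.

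Of 15 glycolysis genes tested 5 were called lower and 0 higher (median -0.97), and of 18 hypoxia genes 6 were called lower and 0 higher (median -0.90). The remaining 10 and 12 were not called. HIF-1 binds the letters ACGTG near its targets when oxygen is short or when its alpha subunit is stabilised, and glycolytic enzymes are among these targets. The promoter windows of 3 of the 6 hypoxia genes called are shown because all 6 held ACGTG on either strand. They are printed as above, with the match in capitals.
Bnip3: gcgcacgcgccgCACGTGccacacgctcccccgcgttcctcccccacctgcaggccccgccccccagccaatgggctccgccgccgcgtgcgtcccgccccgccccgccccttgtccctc
P4ha2: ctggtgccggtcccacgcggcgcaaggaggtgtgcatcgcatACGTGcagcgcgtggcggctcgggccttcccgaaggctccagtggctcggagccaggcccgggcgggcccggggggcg
Ero1a: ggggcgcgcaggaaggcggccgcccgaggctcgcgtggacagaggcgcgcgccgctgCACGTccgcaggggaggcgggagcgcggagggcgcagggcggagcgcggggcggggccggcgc
They lie at chr7:138909507-138909626 (minus strand), chr11:54100804-54100923 (plus strand) and chr14:45318573-45318692 (minus strand) of GRCm38.p6. The Bnip3 match reads the same on both strands and counts on each. Such short letters are common: ACGTG was in 5886 of 27025 genes with a promoter (21.78%), in 2692 of 8920 tested (30.18%), in 68 of 188 called lower (36.17%) and in 64 of 243 called higher (26.34%). It was in 13 of 16 hypoxia genes tested and 10 of 14 glycolysis genes tested, called or not. Of the called glycolysis genes 3 of 5 held it.

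Of the enzymes, Tpi1, triosephosphate isomerase, read 1961 and 1427 against 3361 and 4403 (-1.20 ± 0.16, adjusted p 0.0015), and Pgam1, phosphoglycerate mutase, 1245 and 914 against 2314 and 2703 (-1.23 ± 0.19, adjusted p 0.003). Both were stable calls. Hk2, hexokinase 2, read 163 and 134 against 374 and 333 (-1.24 ± 0.24, adjusted p 0.011), Pfkl, the liver type phosphofructokinase, 241 and 210.1 against 381 and 792 (-1.28 ± 0.28, adjusted p 0.019), and Pkm, pyruvate kinase, 3307 and 2703 against 4615 and 4955 (-0.68 ± 0.13, adjusted p 0.012). These calls were lost for Hk2 without Treg replicate 2 or Th1 replicate 1 (adjusted p 0.061 to 0.12), Pfkl without either Treg array or Th1 replicate 2 (adjusted p 0.091 to 0.15) and Pkm without Treg replicate 2 or Th1 replicate 2 (adjusted p 0.067 to 0.15). All 3 were lost on the signals as deposited too: Hk2 (-1.01, adjusted p 0.093), Pfkl (-1.04, adjusted p 0.089) and Pkm (-0.73, adjusted p 0.16). The glucose transporter genes Slc2a1 (-1.15 ± 0.42, adjusted p 0.15) and Slc2a3 (-0.97 ± 0.45, adjusted p 0.28) and Hk1 (-0.70 ± 0.22, adjusted p 0.095) were not called. None of the 15 had a positive difference.

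Of the hypoxia genes, P4ha2, a collagen prolyl hydroxylase chain, read 48.1 and 20.3 against 217 and 267 (-2.82 ± 0.59, adjusted p 0.016), and Egln3, a hydroxylase that marks HIF-alpha, 291 and 235 against 1506 and 2009 (-2.72 ± 0.46, adjusted p 0.0049). Ero1a, an oxidase of the endoplasmic reticulum, read 596 and 439.9 against 2353 and 2005 (-2.08 ± 0.41, adjusted p 0.012), and Bnip3, a mitophagy receptor, 687 and 411 against 1448 and 2563 (-1.85 ± 0.42, adjusted p 0.025). Every Treg array lay below every Th1 array for these genes, and Th1 replicate 2 had the highest signal for P4ha2, Egln3 and Bnip3. Ankrd37 read 75.3 and 32.2 against 169 and 308 (-2.14 ± 0.55, adjusted p 0.045) and Higd1a, a mitochondrial protein gene, 1098 and 1141 against 2063 and 2169.9 (-0.92 ± 0.19, adjusted p 0.015). None of the 6 was stable: calls were lost for P4ha2 without Treg replicate 2 or either Th1 array (adjusted p 0.056 to 0.17), Egln3 without Treg replicate 2 (adjusted p 0.06), Ero1a without either Treg array or Th1 replicate 1 (adjusted p 0.0507 to 0.12), Bnip3 without either Treg array or Th1 replicate 2 (adjusted p 0.058 to 0.22) and Ankrd37 and Higd1a without any 1 of the 4 arrays (adjusted p 0.0534 to 0.33). Of these, Ankrd37 (-1.85, adjusted p 0.061) and Higd1a (-0.86, adjusted p 0.13) were not called on the signals as deposited, nor were Ankrd37 (-2.14, adjusted p 0.056) and Higd1a (-0.16, adjusted p 0.8) with probe sets averaged. The list's lower calls numbered 2, 0, 3 and 2 without Treg replicate 1, Treg replicate 2, Th1 replicate 1 or Th1 replicate 2, and those of glycolysis 4, 2, 5 and 3. Hif1a itself was level, at 1611 and 1448 against 1877 and 1471 (-0.12), and Vegfa differed by -1.16 ± 0.48 (adjusted p 0.21).

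Among acetate and lipid synthesis genes 1 of 15 was higher and 4 were lower, with a median of -0.51. Ffar2, a receptor for short chain fatty acids, read 20.7 and 29.6 against 243 and 195 (-2.99 ± 0.41, adjusted p 0.0017) and was a stable call. Acss1, the mitochondrial acetyl-CoA synthetase, read 115 and 102 against 14.2 and 34.7 (2.13 ± 0.35, adjusted p 0.0045), whereas the cytosolic Acss2 overlapped at 85.5 and 71.2 against 43.5 and 99.1 (0.24). The lipid enzymes were lower by less: Sqle, of sterol synthesis, by -0.90 ± 0.19, adjusted p 0.018, Scd2, a desaturase, by -0.74 ± 0.16, adjusted p 0.018, and Acly, ATP citrate lyase, by -0.73 ± 0.18, adjusted p 0.038. Calls were lost for Acss1 without Treg replicate 1 (adjusted p 0.0505), Sqle and Acly without any 1 of the 4 arrays (adjusted p 0.061 to 0.2) and Scd2 without either Treg array or Th1 replicate 2 (adjusted p 0.071 to 0.16). Signals as deposited ended the calls of Sqle (-0.69, adjusted p 0.39), Scd2 (-0.76, adjusted p 0.16) and Acly (-0.55, adjusted p 0.46), and averaged probe sets that of Acly (-0.052, adjusted p 0.96). Of 17 genes of the TCA cycle and fatty acid oxidation only Cpt1a, which admits fatty acids to mitochondria, was called, at 167 and 153 against 49.7 and 96.2 (1.17 ± 0.27, adjusted p 0.027; lost without either Treg array or Th1 replicate 1 (adjusted p 0.13 to 0.17)). Its call was also lost on the signals as deposited, Cpt1a (1.40, adjusted p 0.0553), and with probe sets averaged, Cpt1a (0.47, adjusted p 0.43). Cs, Idh2 and Idh3a differed by -0.41, 0.34 and 0.03, and the list median was 0.03. The share called in that list, 5.88%, was near the 4.91% of all genes tested.

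The lists for growth showed few calls. The 6.67% called of the ATF4 targets was near the 4.91% of all genes tested. Of 15 ATF4 targets only Atf5, an amino acid response factor, was called, at 94.9 and 73.5 against 429.7 and 189 (-1.74 ± 0.36, adjusted p 0.015; lost without either Treg array or Th1 replicate 1 (adjusted p 0.064 to 0.14)), with Atf4 at -0.62, Ddit3 at -0.98 and Trib3 at -0.35 (list median -0.44). Of 20 cell cycle genes 0 were called, although all 20 differences were negative (median -0.40). Mki67 (481 and 346 against 349 and 739.9), Top2a (795 and 719 against 639 and 1542) and Ccna2 (254 and 195 against 173 and 506) were highest in Th1 replicate 2, while Th1 replicate 1 lay near or below the lower Treg array. Of 16 ribosome biogenesis genes 0 were called (median -0.06), with Myc at 0.35, Ncl at 0.17 and Npm1 at -0.12. Of 11 Bcl2 family genes 0 were called (median -0.03); the survival genes Bcl2 (-1.38 ± 0.43, adjusted p 0.091) and Bcl2l1 (-0.89 ± 0.25, adjusted p 0.063) had negative differences and Mcl1 a positive one (0.83 ± 0.25, adjusted p 0.085). Among 8 serpins 2 were lower, Serpinb5 and Serpinf1, while Serpinb1a differed by 3.07 ± 0.90 (adjusted p 0.073) and Serpinb6a by -0.35.

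Without the variance trend the calls of Xcl1, Cd7, Il12rb2, Tgfbr1, Cxcr6, Cxcr5, Gzmc, Il2rb, Tnfrsf1b, Jun, Igtp, Pkm, Bnip3, Ankrd37, Scd2 and Acly (adjusted p 0.0505 to 0.079) were lost. Without the filter on low signals they were lost for Tgfbr1, Cxcr6, Cxcr5, Gzmc, Tnfrsf1b, Igtp, Ankrd37 and Tgif1 (adjusted p 0.0503 to 0.059), scaled to a common trimmed mean for Tgfbr1, Gzmc, Il2rb, Jun, Igtp and Ankrd37 (adjusted p 0.0535 to 0.073), and with 1 added to the signals for Cxcr6. A fit of the 4 arrays alone lost those of Emp1, Slc17a6, Inhba, Nrp1, Il12rb1, Stat4, Cxcr5, Il2rb, Gadd45g, Tnfrsf1b, Pfkl, Cpt1a, Sqle, Acly, Atf5, Kit, Pcx and Tgif1 (adjusted p 0.0503 to 0.16). The same fit newly called Eomes, Klrk1, Ccl1, Ccr7, Ifit1, Ifit3, Gbp2, Atf4, Ddit3, Bcl2 and Serpinb1a (adjusted p 0.004 to 0.047). All of these but Eomes and Ifit3 were also called in a fit of the 7 control arrays (adjusted p 0.0004 to 0.045). A missing call in the main fit does not show that such a gene did not differ.

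**Figure D3:**
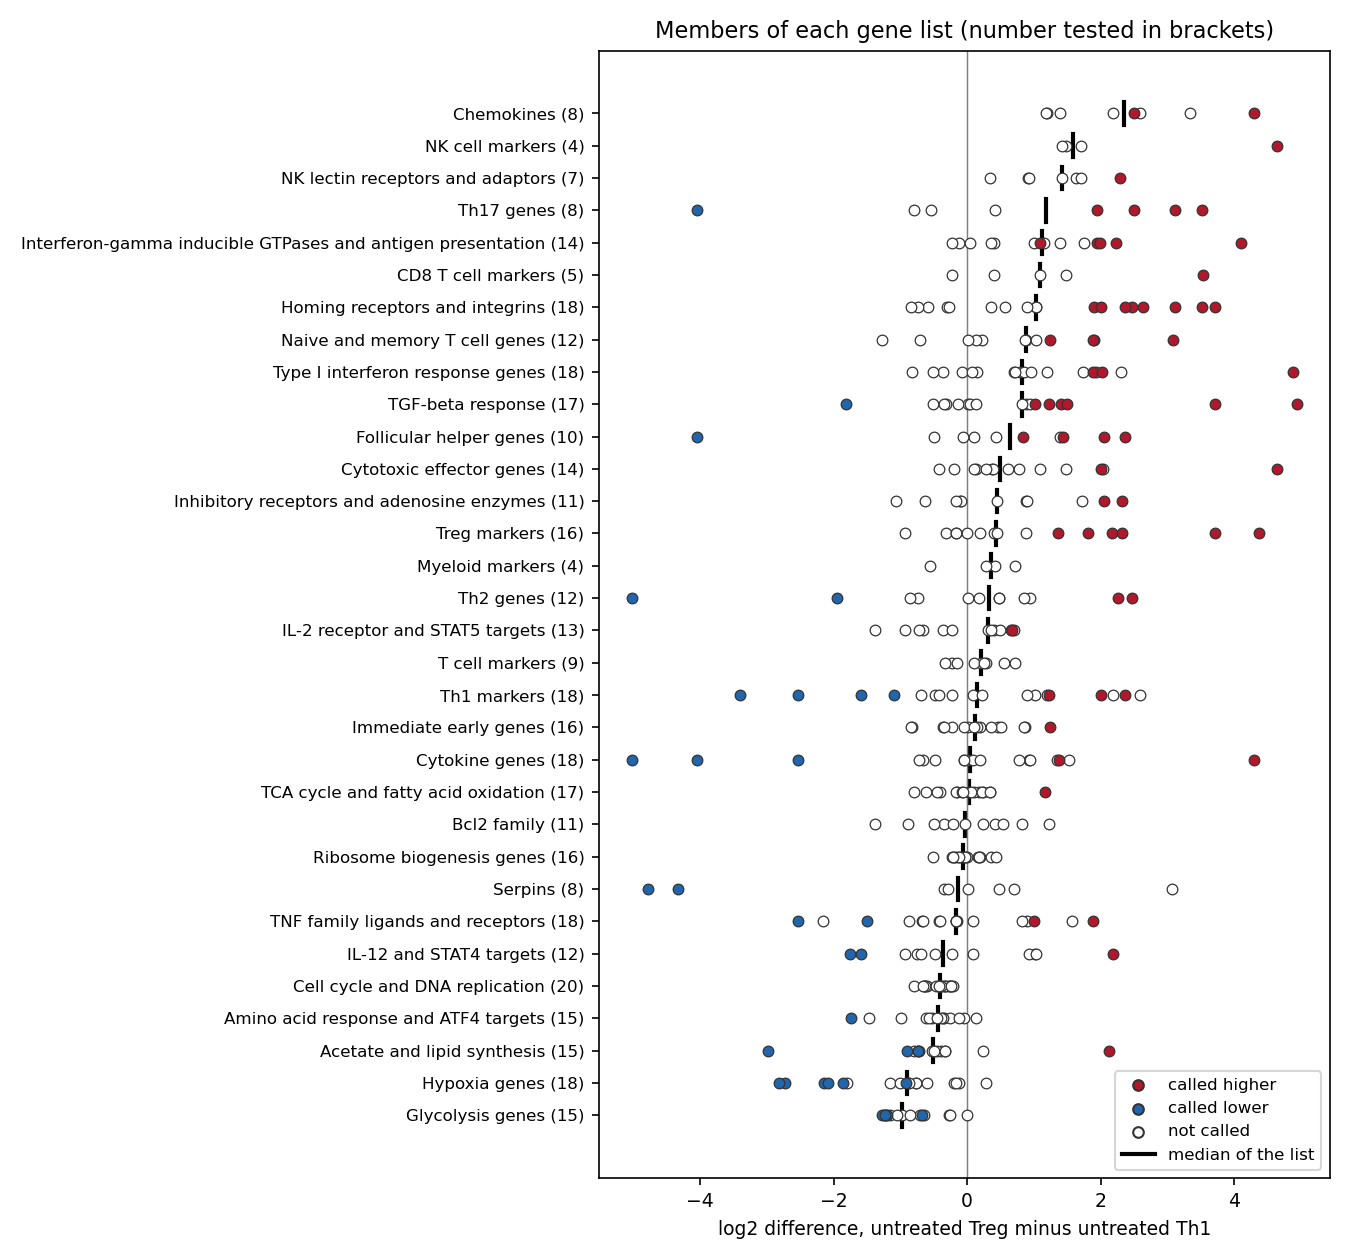
Log2 differences of the tested members of each gene list with at least 4 tested, 1 point a gene, with calls filled red (higher in Treg) or blue (lower) and a bar at the list's median. Chemokines have the highest median (2.35) and glycolysis genes the lowest (-0.97), against -0.01 for all genes tested.

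The same contrast was available in the cultures with acetate, Treg acetate against Th1 acetate, in 4 arrays that share none with the untreated ones. Their protocols list acetone at 10 mM, but according to the design text sodium acetate was added. There 164 genes were called (1.5%), 118 higher and 46 lower in Treg, or 58 and 45 on the signals as deposited. With single acetate arrays left out the count ran from 10, without Treg acetate replicate 1, to 778, without Th1 acetate replicate 1. Of the 307 genes higher between untreated cultures, 279 had the same sign, where 50.4% of all genes tested had a positive difference. Of the 307, 50 were called higher again (16.3% of the list, where 1.08% of all genes were called higher), and 0 were called lower. Of the 229 lower genes, 148 had the same sign, 7 were called lower again (3.06%, where 0.421% of all genes were), and 5 were called higher. Both contrasts share the estimate of each gene's spread, the normalisation, the probe set and the filter. These shares are therefore not those of an independent repeat.

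Foxp3 was higher in Treg here too, with signals of 51.9 and 66 against 12.7 and 12.8 (1.97 ± 0.36, adjusted p 0.024), as were Gzma (8733 and 9985 against 1168 and 1797; 2.69 ± 0.47, adjusted p 0.021) and Ikzf2 (263 and 332 against 94.6 and 82.1; 1.71 ± 0.31, adjusted p 0.022). Nt5e (3.14 ± 0.36, adjusted p 0.0017), Gpr15 (2.73 ± 0.48, adjusted p 0.021), Ccr6 (1.93 ± 0.38, adjusted p 0.033), Itgb3 (1.94 ± 0.34, adjusted p 0.021), Klf2 (2.66 ± 0.54, adjusted p 0.033) and Ahr (3.25 ± 0.38, adjusted p 0.0017) were also called higher. These span the Treg, homing, naive and Th17 lists. Slc17a6 (-3.58 ± 0.62, adjusted p 0.021) and Inhba (-3.39 ± 0.64, adjusted p 0.027) were called lower again. Every gene given so far in this paragraph was called in both contrasts, whereas most genes called between untreated cultures were not called again. Il21 was not called lower with acetate. The Th17, follicular helper and cytokine lists, which hold it, had 0 members called lower there.

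The medians of the hypoxia and glycolysis lists took the other sign with acetate. That of the 18 hypoxia genes was 1.49, with 4 called higher and 0 lower, and that of the 15 glycolysis genes 0.47, with 0 called. The medians of acetate and lipid synthesis (-0.16) and of the TCA cycle and fatty acid oxidation (0.01) kept their sign. A change of sign was not particular to hypoxia and glycolysis. Among others, the median went from 2.35 to -0.78 for chemokines and from 0.16 to -0.73 for Th1 genes. For cytotoxic effector genes it went from 0.50 to -0.12. Bnip3 had signals of 3182 and 3092 against 1407 and 522 (1.87 ± 0.42, adjusted p 0.048), and Higd1a of 2643 and 2836 against 1565 and 1058 (1.09 ± 0.19, adjusted p 0.021). For both genes the Treg arrays lay above the Th1 arrays, the reverse of the untreated order. The interferon-gamma list had 0 genes called with acetate and a median of 0.30, and the type I list 1 and 0.27.

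A test of whether the difference between Treg and Th1 itself changed with acetate called 68 genes (0.623%), in 52 of which it was higher and in 16 lower with acetate, or 21 and 14 on the signals as deposited. The smallest p-value was that of Il24, whose acetate signals were 2063 and 1095 against 1000.2 and 285, so the difference went from -5.02 to 1.49 (change 6.50, adjusted p 0.00098). Next came Syce2, a meiosis gene, from -1.01 to 1.03 (change 2.04, adjusted p 0.0077), and Cysltr1, a leukotriene receptor, from -2.45 to 1.32 (change 3.77, adjusted p 0.012). Cysltr1 was a stable call between untreated cultures, at 52.1 and 29.6 against 260.2 and 202, while Syce2, at 195 and 209.6 against 374 and 449, lost its call without Treg replicate 1 (adjusted p 0.063). On the signals as deposited Syce2 (-0.79, adjusted p 0.24) and Pcx (-0.84, adjusted p 0.27) were not called between untreated cultures. Higd1a, Pcx, pyruvate carboxylase (38.9 and 51.4 against 87 and 119 untreated; call lost without either Treg array or Th1 replicate 2 (adjusted p 0.063 to 0.18)), and Tpi1 complete the 6 smallest, with changes of 2.00, 2.55 and 1.64. Only 1 gene, Il24, was called without Treg acetate replicate 1, and 307 were called without Th1 acetate replicate 1. Of the genes named for this test, Il24 alone kept its call without each of the 8 Treg and Th1 arrays in turn (adjusted p at most 0.011).

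**Figure D4:**
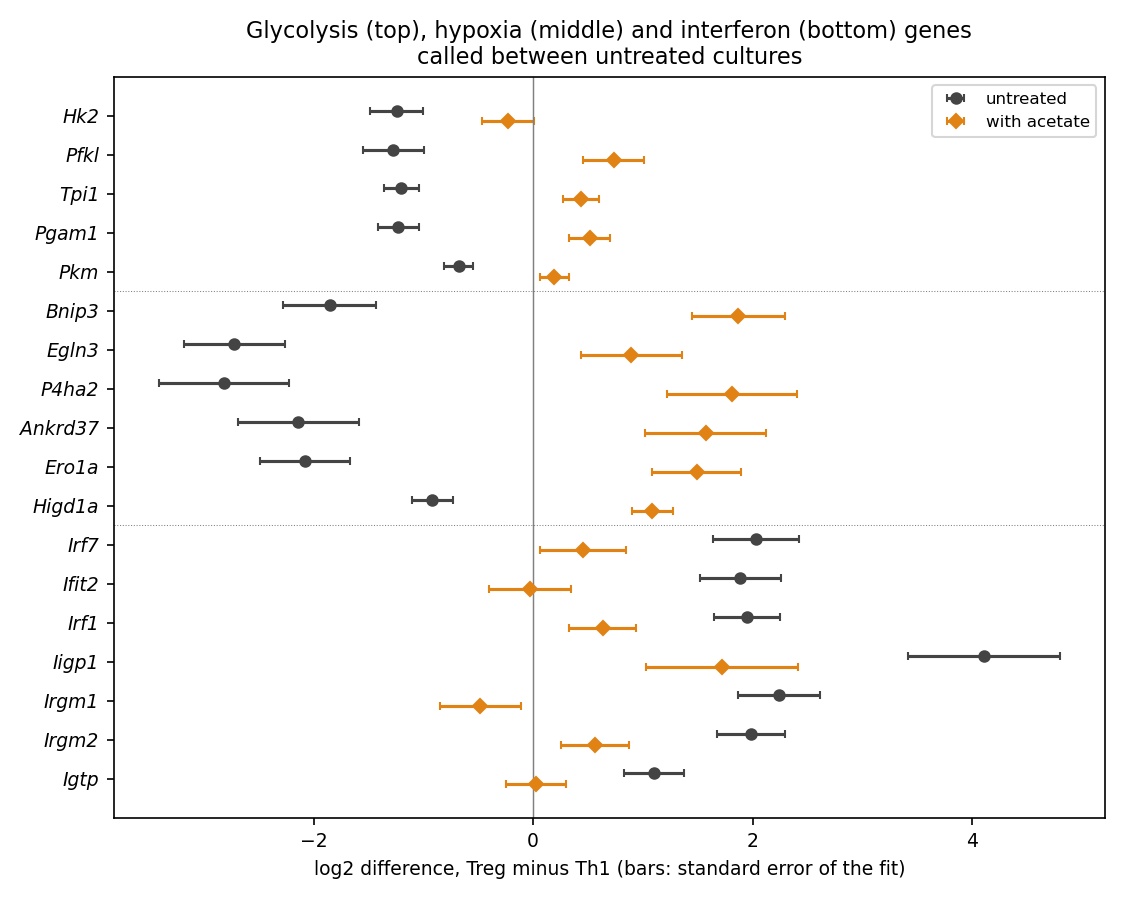
Log2 differences, Treg minus Th1, between untreated cultures (grey circles) and between acetate cultures (orange diamonds), with standard errors of the fit. Shown are the glycolysis and hypoxia genes called between untreated cultures, and the interferon genes called there except Ifit1bl1. The 5 glycolysis and 6 hypoxia genes lie below 0 untreated, and all but Hk2 lie above 0 with acetate.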

How the data were processed

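Total RNA of cultured mouse CD4+ T cells was hybridised to Mouse 430 2.0 arrays, per the labels' protocols. The authors deposited a linear signal intensity for every probe set, which MAS5 computed according to the submitters' processing notes. No source read here states its version or target value. Detection calls were left aside. Precision is limited by the number of arrays. Every one of the 14 arrays entered with the group of its labels.

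The platform annotation gives 1 gene symbol for 34945 of 45101 probe sets, several for 932 and none for 9211, and 64 array controls were left out; symbols were looked up by Entrez identifier in RefSeq, which matched 34741 and changed 0. Deposited signals were transformed as log2(signal + 3) and quantile normalised across arrays over the probe sets with 1 symbol. The probe set of highest mean stood for each gene, and genes with means from the 40th percentile upwards were tested with limma 3.58.1 (R 4.3.3), with 6 group means, 8 residual degrees of freedom and a variance trend. Adjusted p-values come from limma and were adjusted by Benjamini-Hochberg over the 10916 genes. Genes named were the 15 largest called differences in each direction whose arrays did not overlap, a fixed set of subset genes, and of each list the first 3 members tested and up to 6 called members, with Tgif1 added after its values were seen. Rtp4, which was not tested, was named outside these rules. For the acetate test the 6 smallest p-values were named. The groups, members and lists were chosen with earlier results of these data known. Nothing in the labels ties arrays of the same replicate number, and the main fit did not pair them. With the replicate number as a block, 390 genes were called between untreated cultures, against 536 without it. The correlation of deviations between same-numbered Treg and Th1 arrays was -0.0855. The deviations of the arrays within each of these groups mirror each other, so this value cannot exclude a pairing or a shared batch. The fit was also run on simulated data with independent noise and no effects of whole arrays. That run cannot speak for the stability of the calls here.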

Additional observations from a re-analysis of the deposited data

Results flagged for a closer look

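The difference between Treg and Th1 cultures itself differed between acetate and untreated cultures, by a test of that difference, for 68 genes. Among the genes named, it was higher with acetate for Il24 (6.50), P4ha2 (4.63), Hlx (4.30), Ermn (3.82), Cysltr1 (3.77), Bnip3 (3.72), Egln3 (3.62), Ero1a (3.57), Ppp1r3b (3.39), Ffar2 (3.01), Batf3 (2.78), Pcx (2.55), Syce2 (2.04), Pfkl (2.01), Higd1a (2.00), Pgam1 (1.74) and Tpi1 (1.64). It was lower with acetate for Bambi-ps1 (-3.48), Atp1b1 (-3.46), Irgm1 (-2.72), Pdcd1 (-2.50), Pde2a (-2.34) and S1pr1 (-1.58). Each value is the Treg minus Th1 log2 difference with acetate minus that without, and limma's adjusted p ran from 0.00098 for Il24 to 0.046 for Pde2a. All of these genes were also called between untreated cultures, and that untreated difference is subtracted here. Those higher with acetate had a negative untreated difference and those lower a positive one, a direction that the choice of genes favours. Of these 23 genes, 22 lost the call without at least 1 of the 8 Treg and Th1 arrays, and Il24 kept it throughout. Without Treg acetate replicate 1, all but Il24 lost it. No group held 4 or more arrays, so no array was tested as an outlier within its group.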

How the results depend on the processing

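The count of 536 genes called between untreated cultures ranged from 125 to 725 when single arrays were left out. It was 266 on the signals as deposited, with 249 of the 536 among them, 1027 with only the 7 control arrays and 390 in the fit with the replicate number as a block (replicate block). Between 379 and 580 genes were called under the other alternatives that keep all arrays compared, and 613 of 34945 when each probe set was tested on its own, an alternative chosen after seeing the data. The count of 164 with acetate ranged from 10 to 778 without single arrays, and was 103 as deposited, 62 without the variance trend and 77 with the replicate block. The count of 68 for the change with acetate ranged from 1 to 307 without single arrays, and was 35 as deposited, 45 with probe sets averaged, 16 without the trend and 18 with the replicate block. The cause of these shifts was not tested; fewer arrays leave fewer degrees of freedom. Of 98 called genes named, 34 kept their call under all 26 alternatives, 64 lost it under at least 1 and 0 changed sign; of 77 not called, 31 passed under at least 1. Of those not called, 27 changed sign under at least 1 alternative. Without single arrays, the log2 difference ran for Il18r1 from -0.79 to 0.96, Lag3 from -0.23 to 0.024, Vpreb3 from -0.069 to 0.34, Ski from -0.20 to 0.23, Idh3a from -0.20 to 0.25, Cd8b1 from -0.00016 to 0.81, Itga2b from -0.48 to 0.29, Ifng from -1.35 to 0.40, Hif1a from -0.30 to 0.055, Idh2 from -0.0086 to 0.69, Acss2 from -0.33 to 0.80, Trib3 from -0.95 to 0.24, Adgre1 from -0.085 to 0.94, Il10 from -0.90 to 2.77, Il2 from -0.54 to 3.60, Il4 from -0.063 to 0.081, Il13 from -0.00033 to 1.89, Klrc1 from -0.28 to 0.96, Mki67 from -0.86 to 0.22, Top2a from -1.02 to 0.24, Ccna2 from -1.17 to 0.36, Myc from -0.27 to 0.97, Serpinb6a from -0.75 to 0.055, Cd68 from -1.22 to 0.10 and Il2ra from -1.30 to 0.67. As deposited, Tnfsf4 was at 0.058 and Itga2b at 0.19, and scaled to a common trimmed mean Itga2b was at 0.0094 and Ncl at -0.046. With probe sets averaged Klrc1 was at -0.039, and Il2ra was at 0.66 with the 7 control arrays and 0.65 with the 4 compared, where its other probe set had the higher mean. Low signals limited what could be tested: Rtp4 lay below the filter, and Ighv14-2 did so without either Treg array.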
